A study of Mus musculus with 14 samples.

Results

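Leukocyte and microglia miRNAs were followed in the corpus callosum of mice during cuprizone-induced demyelination and remyelination. The 6 miRNAs miR-142-3p, miR-142-5p, miR-155, miR-223, miR-150 and miR-342-3p were chosen by name from the 566 mouse miRNAs on the arrays. Male mice, aged 7 to 8 weeks at the start in the study's methods, received powdered chow with 0.2 to 0.4% cuprizone, a copper chelator that damages oligodendrocytes. The groups were control mice on normal diet (4 arrays), mice after 4 weeks of cuprizone (4wd, 4 arrays), mice with 4 weeks of cuprizone and then 2 days of regular diet (2dr, 4 arrays), and mice with 4 weeks of cuprizone and then 2 weeks of regular diet (2wr, 2 arrays). Neither a strain nor an altered gene is given in the labels for these mice. Total RNA of the dissected corpus callosum was labeled with 1 dye and hybridized to Agilent miRNA arrays.

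miRNAs are short RNAs cut from a hairpin precursor, and bases 2 to 8 of the mature strand, the seed, pair with target mRNAs. miR-142 is made by blood-forming lineages and by microglia, the resident macrophages of the brain, and both arms of its hairpin give mature strands. miR-155 is induced in macrophages and microglia by inflammatory signals, miR-223 is abundant in neutrophils and other myeloid cells, and miR-150 is abundant in mature lymphocytes. miR-342 is encoded within Evl and is made by immune cells as well as brain cells. In a bulk sample, a change in the number of cells of a type and a change in RNA per cell cannot be told apart.

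Of the 6 miRNAs, 5 matched a mature entry of RefSeq on GRCm38.p6, and these are printed to show that each arm and each miRNA has a target-pairing seed of its own, in capitals. miR-150 was not matched by name.
mmu-miR-142-3p: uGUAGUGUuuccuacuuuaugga
mmu-miR-142-5p: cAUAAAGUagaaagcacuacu
mmu-miR-155: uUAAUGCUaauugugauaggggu
mmu-miR-223: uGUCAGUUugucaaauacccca
mmu-miR-342-3p: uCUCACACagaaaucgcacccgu
The 5 seeds were distinct, and none of the other mature entries in the table of 1679 carried any of them. RefSeq names these entries miR-142a-3p, miR-142a-5p, miR-155-5p, miR-223-3p and miR-342-3p. Both arms of miR-142 lie on the plus strand in a hairpin of 64 bases at chr11:87756864-87756927 (GRCm38.p6), shown because its arms are compared here, with the 5p arm and then the 3p arm in capitals.
Mir142: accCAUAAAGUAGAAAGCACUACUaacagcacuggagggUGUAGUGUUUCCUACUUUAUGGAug
The other sequences are on the plus strand at chr16:84714143-84714165 within the lncRNA Mir155hg for miR-155, chrX:96242884-96242905 within the lncRNA F630028O10Rik for miR-223 and chr12:108658680-108658702 within Evl for miR-342-3p.

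The arrays detected 181 to 287 mouse miRNAs, and the signal at the 75th percentile was 379 to 849 on control arrays, whereas it was 217 to 344 on 4wd, 209 to 655 on 2dr and 306 to 619 on 2wr arrays. The total signal of each miRNA is therefore given as a percent of the 75th percentile of its own array, which is that of the 170 miRNAs detected throughout. For tests, values were set to a floor of -9.15 on the log2 scale (0.001755 of the 75th percentile), and limma compared the 225 miRNAs that every array of some group detected, which included 5 of the 6 miRNAs. The arrays lay on 2 slides, with 2 arrays of control and 2 of 4wd on each, 3 of 2dr on slide 1 and 1 on slide 2, and 1 of 2wr on each. The study's methods count the miRNA data in mice per group, more than the arrays of 2wr, while the labels tie no array to a mouse, so p-values measure the spread between these samples. Precision is limited by how many arrays a group has, and 2wr has fewest. The listed oligodendrocyte miRNAs, miR-219, miR-338-3p, miR-338-5p and miR-138, were each detected on at least 1 array of every group. Their summed signal was 281 to 1124% of the 75th percentile in control, 197 to 354% at 4wd, 219 to 701% at 2dr and 376 to 397% at 2wr.

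Detection divided the 6 miRNAs into those near the limit and those well above it. miR-150 and miR-342-3p were detected on all 14 arrays, miR-142-3p on 11, miR-223 on 8, miR-155 on 6 and miR-142-5p on 1. Arrays that detected miR-155 numbered 0 of 4 in control, then 1 of 4, 4 of 4 and 1 of 2 in 4wd, 2dr and 2wr. For miR-142-3p these numbers were 2 of 4 in control and then 4 of 4, 4 of 4 and 1 of 2. The calls of miR-223 ran otherwise, with 4 of 4 in control and then 0 of 4, 3 of 4 and 1 of 2. No spot of the 6 miRNAs was saturated on any array.

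**Figure D1:**
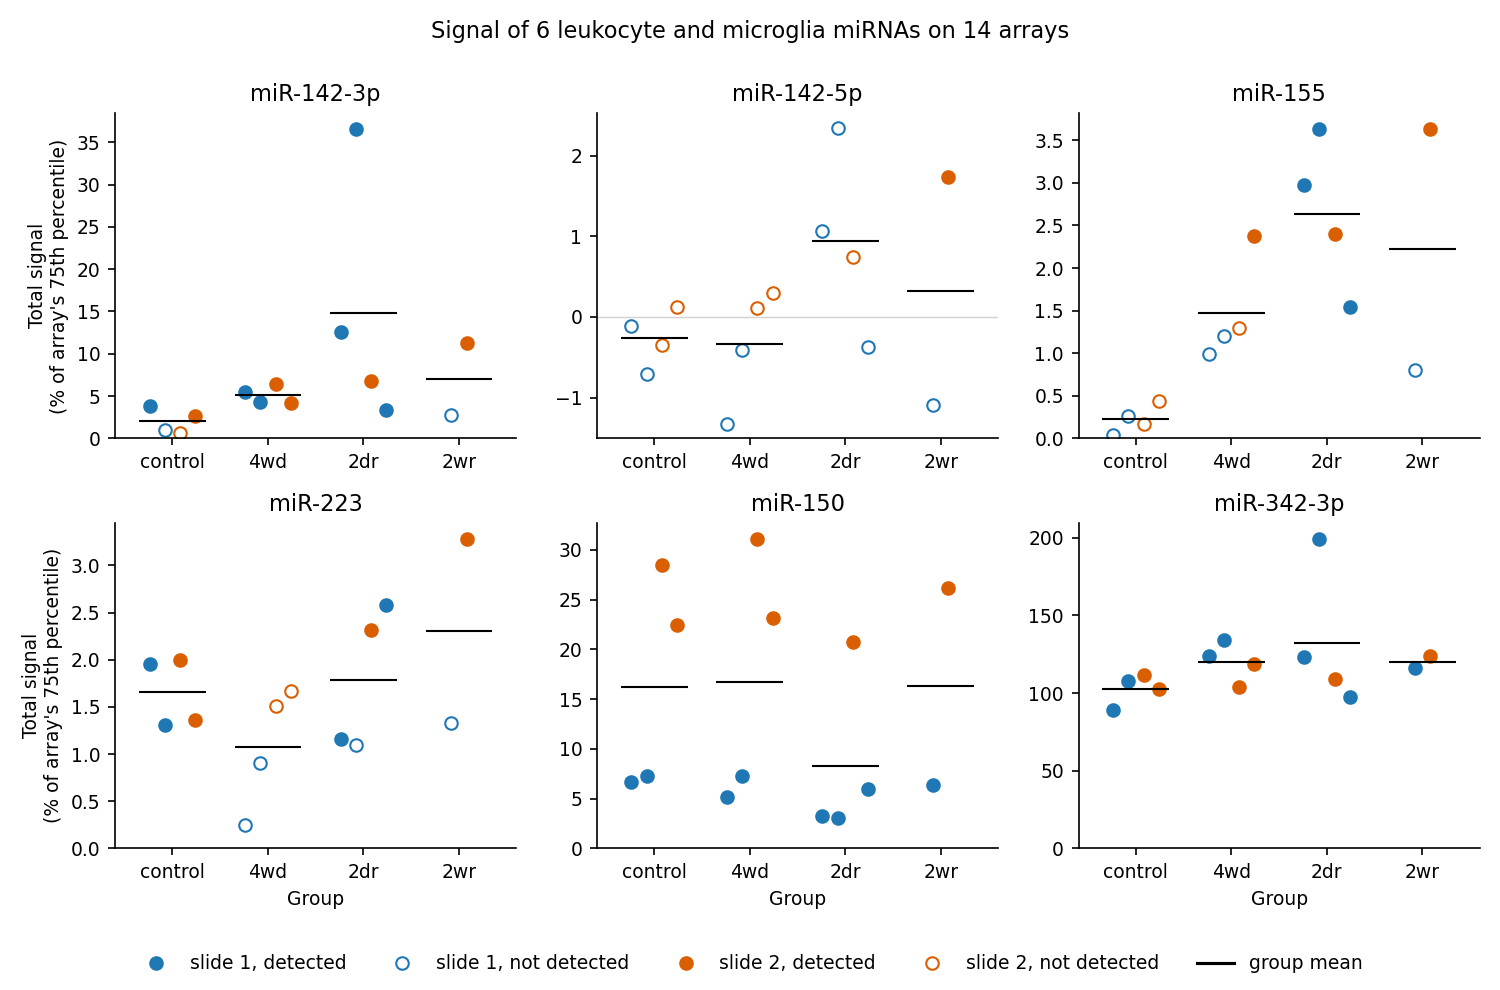
Total signal of each miRNA on each of 14 arrays, as a percent of the 75th percentile of the array (linear axes that differ between panels), by group; filled points were called detected, open points were not, colours are slides and bars are group means. miR-155 lay at 0.0455 to 0.438% on control arrays and at 1.54 to 3.63% at 2dr, and the arrays of miR-150 separated by slide.

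Against control, limma called 1 of the 5 tested miRNAs at 4wd and 1 at 2dr, in both cases miR-155, and 0 at 2wr. A call needed a change of 2-fold or more and a p under 0.05 after Benjamini-Hochberg adjustment. miR-155 passed the detection filter through 2dr alone, the group in which every array detected it and its mean was highest, so its selection for the test already favored a difference between 2dr and control. miR-142-3p entered through 4wd and 2dr, miR-223 entered through control, and miR-150 and miR-342-3p through every group. Of all 225 tested, the share called was 0.444%, 0.889% and 0% in these comparisons, and limma gave 23, 27 and 2 of them an unadjusted p under 0.05. The test of the study's methods, with a post hoc comparison, called 0 in each. Between 2dr and 4wd and between 2wr and 2dr limma called 0% of all miRNAs, with an unadjusted p under 0.05 for 41 and 2 of them, and the methods' test also called 0. The 3 comparisons with control use the same control arrays.

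miR-155, the miRNA of activated macrophages and microglia, was close to background on control arrays and, after scaling, above them on all arrays of the other groups. Its signal was 0.0455, 0.260, 0.175 and 0.438% of the 75th percentile on control replicates 1 to 4. At 4wd it was 0.987, 1.20, 1.30 and 2.38%, at 2dr it was 2.98, 3.63, 2.40 and 1.54%, and at 2wr it was 0.801 and 3.64%. After scaling, every 4wd, 2dr and 2wr array lay above every control array. The 2dr arrays overlapped the range at 4wd, and the 2wr arrays lay on either side of the 2dr arrays. Before scaling, the total signal was 0.285 to 3.72 on control arrays, 2.82 to 8.20 at 4wd, 7.59 to 15.7 at 2dr and 2.45 to 22.5 at 2wr. The unscaled ranges of 4wd and 2wr thus overlapped that of control, and the part of array brightness was not tested. Replicates 1 and 3 of control stood at the floor.

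The log2 fold change of miR-155 against control was 2.51 ± 0.48 (SE) at 4wd (adjusted p = 0.0385 from limma), 3.37 ± 0.48 at 2dr (adjusted p = 0.00222) and 2.81 ± 0.59 at 2wr (adjusted p = 0.0833). The exact permutation p was 0.0286 at 4wd and at 2dr, the smallest that 4 arrays against 4 allow, and 0.133 at 2wr, the smallest that 2 against 4 allow. Adjusted by Benjamini-Hochberg over 30 exact permutation tests, it was 0.286 at 4wd and at 2dr and 0.429 at 2wr. These p-values are for a miRNA admitted by its detection at 2dr, and in a fit of all 566 mouse miRNAs without the filter the adjusted p from limma was 0.295 at 4wd, where the call was lost, and 0.0273 at 2dr. Slide 1 alone gave differences of 2.35, 3.58 and 1.91 for the successive groups, and slide 2 alone gave 2.66, 3.11 and 3.71. With slide as a block the value at 2wr was called (2.81, adjusted p = 0.0449 from limma).

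The size of the difference in miR-155 rests on how undetected signals are treated. No control array and 1 of 4 arrays at 4wd detected it, so both sides of that comparison were near background. With each control array raised to its lowest detected signal where that was higher than its own, the 2dr mean was 4.44-fold above control. For the 4wd mean the fold was 2.44 and for the 2wr mean 3.01. On 2 of the 4 control arrays that lowest signal was not above 0, and the 5th percentile of detected signals was used there instead. With that 5th percentile on all 4 control arrays the fold was 2.41 at 2dr, 1.33 at 4wd and 1.64 at 2wr. With a higher floor common to all arrays (0.0147 of the 75th percentile) the log2 fold change was 0.77 at 2dr (adjusted p = 0.355 from limma), 0.17 at 4wd (adjusted p = 0.940) and 0.65 at 2wr (adjusted p = 1). No firm lower bound is given, since these values differ by more than 1.5 times. The call at 4wd was also lost in 10 of the 14 fits that left out 1 array, where the log2 fold change was 2.24 to 2.79 and the adjusted p reached 0.177. The fits that kept it left out control replicate 4, 2dr replicate 4 or either 2wr array. The call at 2dr was kept in all 14 of these fits (3.19 to 3.65). They tested the same 225 miRNAs, so they kept the selection of miR-155 through 2dr and cannot show the call apart from it. At 2wr the value without replicate 1 was 3.90 (adjusted p = 0.00826 from limma) and without replicate 2 it was 1.72 (adjusted p = 0.953), and without control replicate 4 it was 3.09 (adjusted p = 0.0498).

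**Figure D2:**
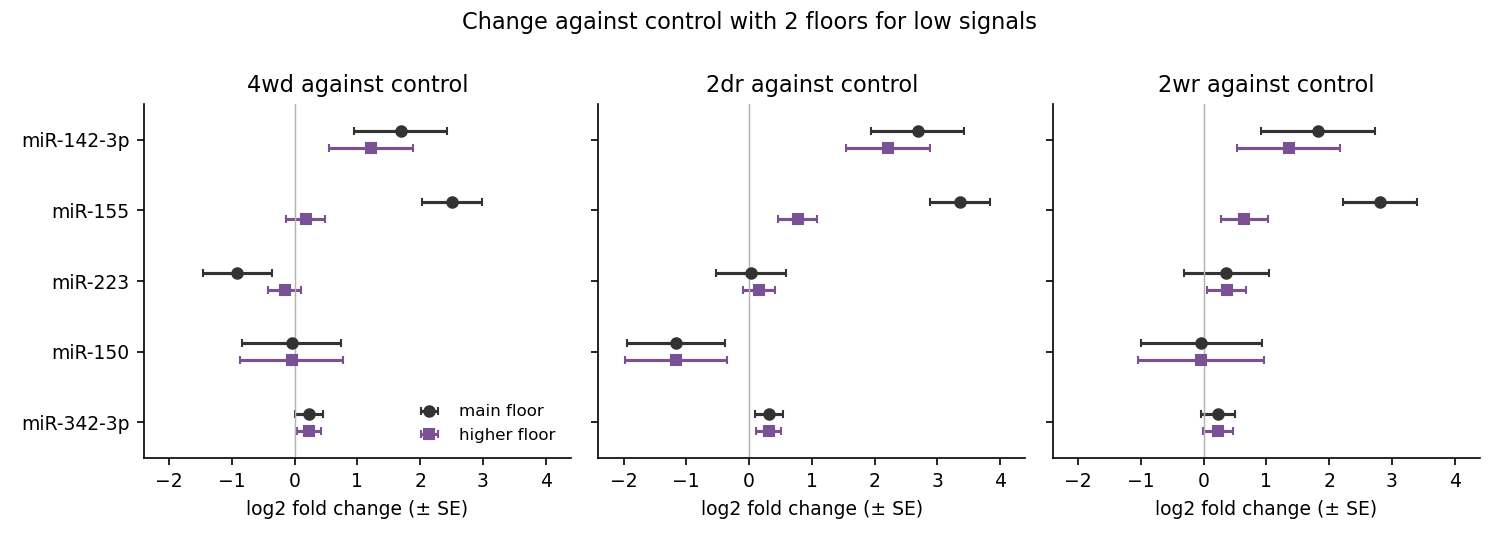
log2 fold change against control with its SE for the 5 miRNAs tested by limma, at the main floor (circles) and the higher floor (squares). miR-155 moved from 3.37 to 0.77 at 2dr between the floors, miR-142-3p from 2.69 to 2.22, and miR-150 and miR-342-3p, which were detected on all arrays, stayed at -1.16 and 0.31.

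miR-142-3p, the more strongly detected arm of the miR-142 hairpin, was above control after scaling on every 4wd array and on most arrays of the later groups. Its signal was 3.81, 0.974, 0.607 and 2.69% of the 75th percentile on control replicates 1 to 4. At 4wd it was 5.48, 4.35, 6.48 and 4.24%, at 2dr 12.6, 36.6, 6.82 and 3.33%, and at 2wr 2.76 and 11.2%. After scaling, the 4wd arrays were close to each other and did not overlap the control arrays. The 2dr arrays spread widely, with 3 above all control and all 4wd arrays and replicate 4 within the control range. The 2wr arrays fell apart as well, 1 within the control range and 1 above it.

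The log2 fold change of miR-142-3p was 1.69 ± 0.74 (SE) at 4wd (adjusted p = 0.428 from limma), 2.69 ± 0.74 at 2dr (adjusted p = 0.201) and 1.83 ± 0.90 at 2wr (adjusted p = 0.996), none of which passed the threshold. In the same order the exact permutation p was 0.0286, 0.0571 and 0.267 (adjusted 0.286, 0.343 and 0.471 over 30 tests). Within slide 1 the differences were 1.34, 2.58 and 0.52, and within slide 2 they were 2.04, 2.42 and 3.14. The direction against control was the same at all 3 times in each of the 15 other settings run (0.72 to 2.03, 0.84 to 3.35 and 0.63 to 2.53 in 4wd, 2dr and 2wr). With each array left out the values were 1.23 to 2.12, 2.07 to 3.22 and 0.81 to 2.84, and at 2wr the value was 2.84 without replicate 1 of 2wr and 0.81 without replicate 2. Normexp background correction, which moved the median of all tested miRNAs to 0.83 at 4wd, was the single setting that called it at 4wd (adjusted p = 0.0368 from limma).

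miR-142-5p, the other arm, was detected on replicate 2 of 2wr alone and was not tested. Its signal was negative after background subtraction on 7 of 14 arrays, at -0.710 to 0.121% of the 75th percentile in control and -1.32 to 0.294% at 4wd. At 2dr it was 1.07, 2.34, 0.745 and -0.375%, and at 2wr -1.09 and 1.73%. The control and 4wd arrays lay around 0, and 3 of the 4 arrays at 2dr and 1 of the 2 at 2wr lay above all of them, without a detection call at 2dr.

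The arms of miR-142 were compared array by array. On the 4 arrays where miR-142-5p exceeded 0.5% of the 75th percentile, miR-142-3p was at 6.82 to 36.6%, and on the other 10 arrays it was at 0.607 to 6.48%. On the normalized log2 scale the arms correlated with r = 0.78 (permutation p = 0.00021, adjusted 0.00042 over 2 pairs of miRNAs) and rho = 0.78 (permutation p = 0.00178, adjusted 0.00356) over 14 arrays, 9 of which stood at the floor for the 5p arm. Without the 2 arrays farthest from the median of miR-142-3p, r was 0.72. Within the slides r was 0.87 over 8 arrays and 0.67 over 6 arrays. On the linear scale without a floor r was 0.79 and rho 0.64. The arrays share groups, slides and scaling, so this is a relation between arrays and not between cells.

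**Figure D3:**
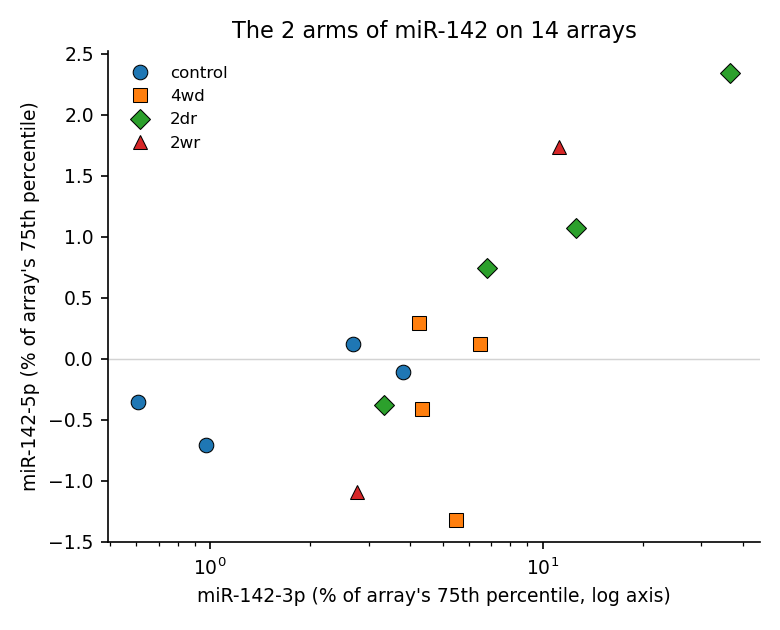
miR-142-5p (linear axis) against miR-142-3p (log axis), both as a percent of the 75th percentile of the array, on 14 arrays, with a symbol for each group. The 4 arrays with miR-142-5p above 0.5% are 3 of 2dr and 1 of 2wr, and they have miR-142-3p at 6.82 to 36.6%.

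miR-223, known from neutrophils and other myeloid cells, lay in overlapping ranges in all groups. It was at 1.95, 1.31, 1.99 and 1.36% of the 75th percentile on control replicates 1 to 4. At 4wd it was 0.245, 0.901, 1.51 and 1.66%, at 2dr 1.16, 1.09, 2.32 and 2.58%, and at 2wr 1.33 and 3.28%. The 2 arrays of 4wd below the control range were both on slide 1. The log2 fold change was -0.91 ± 0.55 (SE) at 4wd (adjusted p = 0.553 from limma), 0.03 ± 0.55 at 2dr (adjusted p = 0.966) and 0.36 ± 0.68 at 2wr (adjusted p = 0.996). Within slide 1 the difference at 4wd was -1.77 and within slide 2 it was -0.06, and the higher floor gave -0.16 at 4wd.

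The loss of detection of miR-223 at 4wd came with dimmer arrays. Its total signal was 7.50 to 12.2 on control arrays and 0.788 to 5.73 at 4wd, where the 75th percentile of the arrays was also lower. The 4wd arrays were raised to their lowest detected signals, or to the 5th percentile of detected signals where the lowest was not above 0. The control mean was not above that limit, so no fold is given. The part of array brightness in these calls was not tested.

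miR-342-3p was detected everywhere, and ranged from 89.2 to 199% over all arrays. It was at 89.2, 108, 111 and 103% of the 75th percentile on control replicates 1 to 4. At 4wd it was 124, 134, 104 and 119%, at 2dr 123, 199, 109 and 97.8%, and at 2wr 116 and 124%. Both 2wr arrays lay above all control arrays, as did 3 of the 4wd arrays and 2 of the 2dr arrays, and replicate 2 of 2dr stood highest. The log2 fold change was 0.23 ± 0.22 (SE) at 4wd (adjusted p = 0.802 from limma), 0.31 ± 0.22 at 2dr (adjusted p = 0.490) and 0.23 ± 0.27 at 2wr (adjusted p = 0.996). The exact permutation p was 0.0857, 0.229 and 0.133. Without scaling between arrays its value was -0.75 at 4wd, where the median of all tested miRNAs was -0.93, and relative to that median it was 0.18.

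The other arm of this hairpin, miR-342-5p, was detected on all 14 arrays as well, at 1.33 to 1.71% of the 75th percentile in control, 1.81 to 2.32% at 4wd, 1.38 to 3.07% at 2dr and 2.06 to 2.28% at 2wr. Its log2 fold change was 0.39 ± 0.24 (SE) at 4wd (adjusted p = 0.553 from limma), 0.37 ± 0.24 at 2dr (adjusted p = 0.449) and 0.46 ± 0.29 at 2wr (adjusted p = 0.996), so neither arm passed the threshold. The other arm of miR-150, miR-150*, was detected on no array.

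miR-150, the lymphocyte miRNA, separated the arrays by slide, while its groups overlapped. On slide 1 it was at 3.03 to 7.29% of the 75th percentile (median 6.18%, 8 arrays), and on slide 2 at 20.7 to 31.1% (median 24.7%, 6 arrays). By group it was 6.70, 7.27, 28.5 and 22.4% in control, 5.21, 7.29, 31.1 and 23.1% at 4wd, 3.30, 3.03, 20.7 and 5.98% at 2dr, and 6.38 and 26.2% at 2wr. The lower values of each group were all on slide 1. With group in the fit, slide 2 exceeded slide 1 by 2.09 ± 0.18 (SE) on the log2 scale (adjusted p = 9.64e-06 from limma). That rule called 13.3% of all tested miRNAs higher on slide 2, and of the 5 tested here miR-150 was the 1 called, with 0.90 for miR-223 (adjusted p = 0.0761 from limma), 0.64 for miR-155 (adjusted p = 0.177), -0.01 for miR-142-3p and -0.08 for miR-342-3p.

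Against control miR-150 gave a log2 fold change of -0.05 ± 0.79 (SE) at 4wd (adjusted p = 0.981 from limma), -1.16 ± 0.79 at 2dr (adjusted p = 0.454) and -0.04 ± 0.96 at 2wr (adjusted p = 0.996). The value at 2dr mixes in the slides, since 3 of the 4 arrays at 2dr were on slide 1. With slide as a block it was -0.64 ± 0.24 (SE) (adjusted p = 0.316 from limma), and within the slides the differences were -0.84 and -0.29. At 4wd and 2wr the within-slide values were -0.18 and 0.09, and -0.13 and 0.05.

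Groups whose scaled signals did not overlap control were counted over all miRNAs and among the 6. Over all tested miRNAs, 6.22% had every 4wd array above every control array, and so did miR-142-3p and miR-155. For 2dr it was 1.78% of all and miR-155 of the 6, and for 2wr 3.11% of all and miR-155 and miR-342-3p of the 6. miR-155 entered the 225 tested through 2dr alone and miR-142-3p through 4wd and 2dr, so the filter already favored these differences. miR-142-5p was not among the 225. Lower groups without overlap made up 2.67% of all in 4wd, 4% in 2dr and 3.56% in 2wr, and none of the 6 was among them. Of the 30 exact permutation tests over 6 miRNAs and 5 comparisons, none could go below 0.0286. After Benjamini-Hochberg adjustment over the 30, the lowest p from these tests was 0.286.

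Between the later groups none of the 5 was called. From 4wd to 2dr the log2 difference was 0.86 for miR-155 (adjusted p = 0.376 from limma), 1.00 for miR-142-3p, 0.94 for miR-223, -1.12 for miR-150 and 0.09 for miR-342-3p. From 2dr to 2wr it was -0.56 for miR-155, -0.86 for miR-142-3p, 0.33 for miR-223, 1.12 for miR-150 and -0.08 for miR-342-3p. The smallest exact permutation p among the former was 0.0571, for miR-155.

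Each miRNA was read by 2 probes with 10 spots each, and the agreement of the probes differed between the miRNAs. For miR-155 the brighter probe carried 85.0% of the summed signal and exceeded 3 times its error on 6 arrays, and the dimmer did so on 1 array. The brighter probe of miR-155 was at 0.111 to 0.305% of the 75th percentile in control and 1.42 to 3.57% at 2dr, a difference of 3.20 on the log2 scale. The dimmer was at -0.0697 to 0.134% in control and 0.0549 to 0.602% at 2dr, and since 9 of its 14 values stood at the floor, no log2 difference is given for it. Its 2 probes correlated with r = 0.49 (permutation p = 0.0762) and rho = 0.53 (permutation p = 0.0549) over 14 arrays, with r = 0.42 within slide 1 and 0.95 within slide 2, and 0.75 without the 2 arrays at 2dr where the brighter probe was highest.

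Both probes of miR-142-3p were higher than control in all 3 later groups. From control to 4wd, 2dr and 2wr the brighter changed by 1.81, 2.87 and 1.94 on the log2 scale and the dimmer by 1.56, 2.44 and 1.72. They correlated with r = 0.97 (permutation p = 3e-05) and rho = 0.92 (permutation p = 1e-05, the smallest that 100000 permutations give), and r was 0.90 without the 2 arrays farthest out. The probes of miR-142-5p correlated with r = 0.95 (permutation p = 1e-05) and rho = 0.95 (permutation p = 2e-05), and r was 0.92 without its 2 farthest arrays. Its brighter probe exceeded 3 times its error on 1 array and the dimmer on 0. The 2 probes of a miRNA share the array, the RNA and the scaling. Their correlation therefore does not by itself show that a miRNA near background was present. The probes of miR-223 correlated with r = 0.67 (permutation p = 0.009) and rho = 0.56 (permutation p = 0.0431), with r at 0.56 without 2 arrays. The adjusted values over the 6 probe pairs were 6e-05, 3e-05 and 0.0135 for these values of r, and 0.0762 for miR-155.

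**Figure D4:**
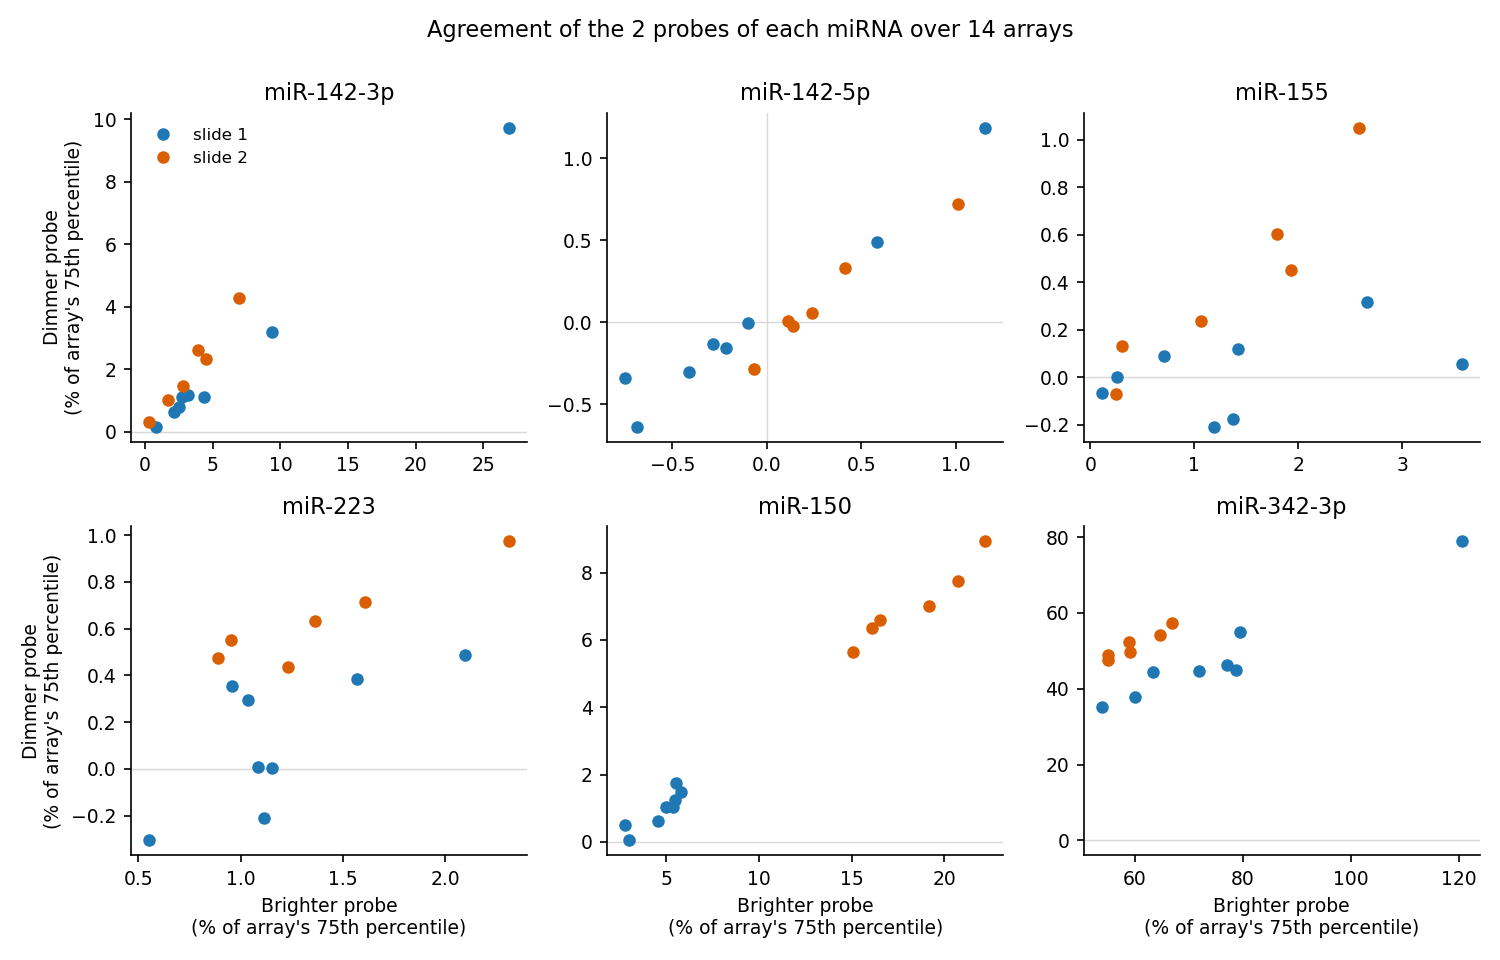
Signal of the dimmer probe against the brighter probe of each miRNA, as a percent of the 75th percentile of the array, for 14 arrays coloured by slide (linear axes that differ between panels). The probes of miR-142-3p lie along a line, those of miR-155 do not on slide 1, and the arrays of miR-150 and miR-342-3p form a separate cloud for each slide.

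For miR-150 the arrays formed a cluster on each slide, and within slides 1 and 2 its probes correlated with r = 0.88 (permutation p = 0.00102) and r = 0.97 (permutation p = 0.00165). For miR-342-3p the within-slide values were r = 0.97 (permutation p = 4e-05) and r = 0.95 (permutation p = 0.00585), against 0.77 over all 14 arrays, which fell to 0.11 without replicate 2 of 2dr and replicate 2 of 4wd. The ratio of the dimmer to the brighter probe differed between the slides for all 3 miRNAs whose probes were both above 0 on every array. It was 0.571 to 0.703 on slide 1 and 0.838 to 0.891 on slide 2 for miR-342-3p, 0.0149 to 0.315 and 0.365 to 0.402 for miR-150, and 0.211 to 0.412 and 0.516 to 1.19 for miR-142-3p. In each case the dimmer probe was relatively higher on slide 2, with no overlap.

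**Figure D5:**
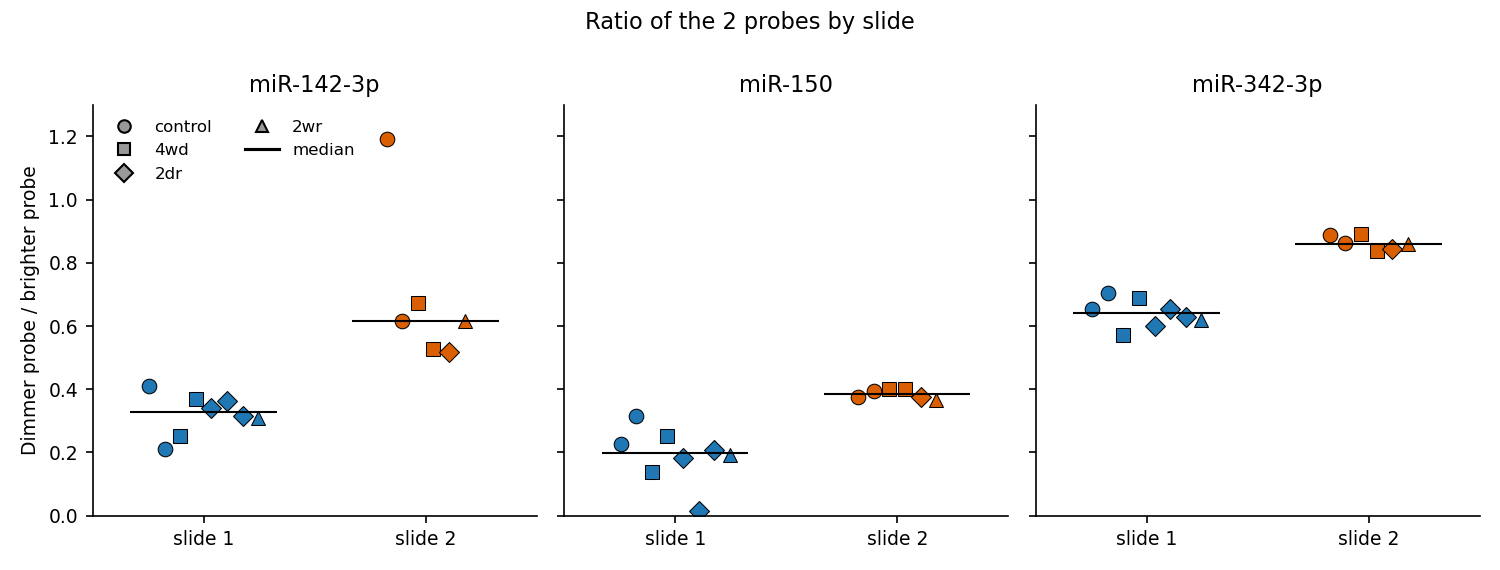
Ratio of the dimmer to the brighter probe by slide, for the 3 miRNAs whose 2 probes were both above 0 on all arrays; symbols are groups and bars are medians. The medians were 0.329 and 0.617 for miR-142-3p, 0.200 and 0.385 for miR-150, and 0.642 and 0.861 for miR-342-3p on slides 1 and 2.

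The miRNAs with the most similar pattern were sought for the 2 that were detected on all arrays, among the 170 such miRNAs, by Pearson's r of the normalized log2 signal over 14 arrays, given as a description. For miR-342-3p these were its own other arm miR-342-5p (0.90), miR-652 (0.81) and miR-689 (0.77), and with the slide means removed the values were 0.91, 0.90 and 0.83. For miR-150 they were miR-30c (0.96), miR-138 (0.93) and miR-9 (0.93), and with the slide means removed they were 0.53, 0.67 and 0.18. These 3 also stood higher on slide 2, by 2.38, 1.12 and 2.01 on the log2 scale. Between miR-150 and miR-342-3p themselves r was taken within the slides, and it was -0.67 on slide 1 (permutation p = 0.0722) and -0.03 on slide 2 (permutation p = 0.955).

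Other miRNAs with known roles in immune cells were read from the same fit. Of 10 listed, 9 were tested and miR-147 was detected on no array. miR-146a, which dampens inflammatory signalling, was called at 2dr with a log2 fold change of 2.67 ± 0.49 (SE) (adjusted p = 0.0136 from limma), and no other was called in any group against control. The median of the 9 was 0.33, 0.13 and 0.12 in 4wd, 2dr and 2wr, beside 0.03, -0.25 and -0.08 over all tested miRNAs. Values above 0 were found for 7, 6 and 8 of the 9, and for 117, 64 and 88 of all 225.

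miRNAs of other cell types are given beside these values, and their part in the results was not tested. None of the 4 tested oligodendrocyte, 5 neuron, 2 red blood cell and 2 vessel miRNAs was called against control at any time. The oligodendrocyte list had a median log2 fold change of -1.0 in 4wd, -0.68 in 2dr and -0.48 in 2wr. The summed signal of the red blood cell list, in which miR-144 was detected on no array, was 46.0 to 98.6% of the 75th percentile in control, 35.9 to 59.3% at 4wd, 44.3 to 76.8% at 2dr and 55.8 to 63.8% at 2wr. This sum did not exceed the control range in any group. For the vessel list the ranges were 79.0 to 126%, 72.3 to 111%, 66.1 to 109% and 80.6 to 98.2%, and for the neuron list they were 2400 to 2917%, 1619 to 3700%, 1673 to 2677% and 2416 to 2636%.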

How the data were processed

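Signals of 14 single-colour miRNA arrays were used. The authors' image software (Agilent Feature Extraction, version 10.5.1.1 per the file headers) made the deposited signal intensity of each spot, a total intensity per miRNA after background subtraction, and detection calls. The deposited series table holds the authors' log2 values scaled per array, which served as an alternative.

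Each total intensity was scaled by the 75th percentile of its array, for which the 170 miRNAs that every array detected were used. Lower values were raised to a common floor, namely the smallest scaled signal among detected miRNAs (median of the 14 arrays), before log2 was taken. A floor decides the size of changes in miRNAs near background. Of 566 mouse miRNAs, 225 were tested in limma 3.58.1 (R 4.3.3), fitted over all 4 groups without covariates. The 10 viral miRNAs were left out. Probe signals are totals per probe. Bounds, slides and the higher floor (median over arrays of the 5th percentile of detected signals) are explained where used. Exact permutation tests were two-sided (scipy 1.17.1), and correlations used 100000 permutations. The fit was tested on simulated data.

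The members and lists were chosen with earlier results of these data known. The miRNAs named are the members, their other arms, the listed miRNAs, and the 3 most similar to each member detected on all arrays. Alternatives were another summary of spots, normexp correction, scaling, filter, floor, slide and replicate blocks, robust estimation with a trend, fits of single pairs of groups, the methods' test, the authors' values, dropping the fold minimum, and omitting single arrays.

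Replicate numbers are shared between groups. Of 18 same-numbered pairs of arrays, 13 correlated above 0.1 in their deviations from group means, with a lowest value of -0.61. Without 2wr, whose source names number its arrays differently from their titles, 10 of 12 pairs did, with a lowest value of -0.13. Most same-numbered arrays thus correlated, but the labels do not say that a number marks a pair. The main fit therefore held no pairing, and the replicate block was an alternative.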

Additional observations from a re-analysis of the deposited data

Results flagged for a closer look

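After the floor was applied, miR-142-5p at 4wd held 1 array apart from the other 3, replicate 4, at a normalized log2 signal of -8.41. The other 3 stood at the floor of -9.15 and have no order, and none of the 4 arrays detected this miRNA. This was the only flag among 18 groups of 4 arrays examined by Dixon's criterion. With 3 equal values the criterion flags any other value, so the flag follows from the floor. The usual chance rate of about 1 in 20 does not apply to such ties. Before the floor, replicates 1 to 4 were at -1.32, -0.414, 0.117 and 0.294% of the 75th percentile, with replicate 4 next to replicate 3.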

How the results depend on the processing

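Over the other settings, 349 of 385 values of the members kept their direction and their side of the threshold and 18 changed sign, as did 17 of 350 with 1 array left out. Every value that changed sign was under 1 on the log2 scale in the reported fit, and none of those passed the threshold there. The reported counts were 1 miRNA and 1 member called at 4wd, 2 and 1 at 2dr, and 0 and 0 at 2wr. At 4wd both counts were 0 with quantile normalization, the mean of the spots, no filter, no scaling, the methods' test, the higher floor alone or together with a slide block, the floor 4 times lower, the trend with robust estimation and the restriction to miRNAs detected on all arrays. At 2dr both counts were 0 with normexp, no scaling, the higher floor together with a slide block, and the methods' test. The count of all miRNAs was 1 with no filter, and it was 1 with 0 members with the higher floor and with only miRNAs detected on all arrays, which leaves miR-155 out. At 2wr both counts were 1 with the slide block, the percentile over all mouse miRNAs and the authors' processed values. Leaving out arrays gave 0 to 1 miRNAs and 0 to 1 members at 4wd, 1 to 2 and 1 to 1 at 2dr, and 0 to 1 and 0 to 1 at 2wr. The cause was not tested for settings that keep the same miRNAs and arrays.

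Normexp called 82 miRNAs and 3 members at 4wd, where it moved the median of all tested miRNAs to 0.83. Under it miR-223 was 1.27 and miR-150 0.89 at 4wd, miR-150 was 0.24 at 2wr, miR-142-3p, miR-155 and miR-223 were -0.51, -0.85 and -0.88 between 2dr and 4wd, and miR-223 was -0.049 between 2wr and 2dr. Relative to that median miR-223 was 0.43 and miR-150 0.05 at 4wd. Without scaling miR-342-3p was -0.75, -0.089 and -0.19 at 4wd, 2dr and 2wr, and miR-223 was -0.37 at 2dr and -0.057 at 2wr. miR-223 at 2dr was -0.062 with the mean of the spots. miR-150 at 2wr was 0.14 with the percentile over all mouse miRNAs, 0.11 with quantile normalization and 0.10 with the authors' processed values, and miR-342-3p between 2wr and 2dr was 0.11 with quantile normalization.

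In the fit with the replicate block, miR-150 at 2wr was 0.93 and no call of a member changed. The labels number the arrays of 2wr differently in their titles, which were used, and in their source names, by which they would match no array of another group, so the value at 2wr rests on a pairing that may not exist. Most same-numbered arrays share a slide as well.

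In fits without 1 array, the values that changed sign ranged from -0.47 to 0.39 for miR-150 at 4wd and -1.06 to 0.98 at 2wr, from -0.18 to 0.23 for miR-223 at 2dr, -0.29 to 1.01 at 2wr and -0.32 to 0.98 between 2wr and 2dr, from -0.13 to 0.21 for miR-342-3p between 2dr and 4wd and -0.21 to 0.14 between 2wr and 2dr, and, between 2wr and 2dr, from -1.87 to 0.15 for miR-142-3p and -1.65 to 0.53 for miR-155. Where 1 array of 2wr was left, its spread was taken from the other groups. Signal over background limits miR-142-5p, miR-155 and miR-223. The values of miR-142-5p and miR-155 at the floor have no order.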
